A study of Homo sapiens with 24 samples.

Results

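The 3 whole-genome-doubled populations of MDA-MB-231 were compared with the undoubled population they came from, to describe what the transcriptomes of the doubled cells share whichever way the genome had doubled. MDA-MB-231 is an established line of triple-negative breast cancer with mesenchymal features. The libraries were taken by line and group, which gave 12 of the 24 libraries of the study: 3 of the parental aneuploid control and 3 each of populations doubled by cell fusion, by mitotic slippage (exit from mitosis without division) and by cytokinesis failure (nuclear division without cell division). The other 12 libraries hold the same 4 groups in HCC1806, a basal-like line, and are used only for the difference between lines. The doubled cells had been isolated by sorting and expanded, and no drug or other agent was applied in the 48 hours of growth before RNA was taken, from 200000 cells seeded per well. The control was parental, and the labels record no sort of it, so that sorting and expansion cannot be told apart from doubling. Each route is represented by 1 derived population, so the 3 libraries of a route are replicates of that population, and the differences between routes are differences between 3 populations.

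A cell that doubles its genome carries every chromosome, and at first every centrosome, in excess. In cells with working checkpoints the CDK inhibitor p21 and the Hippo kinases LATS1 and LATS2 restrain such cells, and cells that go on dividing depend on spindle proteins such as the kinesin KIF18A. Larger nuclei and cells, altered adhesion and tumour progression have been linked to doubling, which is common in breast cancer.

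Levels are given as CPM, the counts scaled by TMM-adjusted library size (a scale without gene length, since TAGseq reads the 3′ ends of transcripts) and changes as log2 fold changes ± standard error, where the 3 doubled populations have equal weight. A gene is said to have risen or fallen where edgeR's quasi-likelihood test gave a Benjamini-Hochberg adjusted p below 0.05 over the 11424 genes tested. Totals ran from 2455707 to 3837957 estimated counts per library, 14147 to 14850 genes were detected, and the biological coefficient of variation was 5.28%. Slippage replicate 3 and cytokinesis failure replicate 1, the smallest library, stood apart from their own replicates, where chi-square over degrees of freedom was 2.26 to 2.45 in the pairs they enter and 1.3 to 1.87 in the other pairs. The first principal component (26% of variance) set fusion, at 24.9 to 28.1, apart from the other groups, at -15.2 to -4.38, and the second (11.5%) set the controls, at 11.7 to 19.4, apart from the doubled libraries, at -16.8 to 3.99. Summed mesenchymal identity markers such as VIM and AXL were at 6995 to 7118 CPM in control, 7878 to 8175 in fusion and 7115 to 7872 in the other doubled libraries. Of 12 markers of HCC1806 basal identity 4 (KRT6A, KRT14, PKP1 and KRT13) were at 0 in every library, while EPCAM, SFN and DSP passed the filter. The 12 summed to 128.3 to 139.4 CPM in control and 117.6 to 155.6 in the doubled libraries. Fibroblast markers summed to 1.82 to 4.54 CPM, with DCN at 0. Endothelial markers, of which PECAM1 alone passed the filter and CDH5 and CLDN5 were at 0, summed to 2.70 to 3.74 CPM in control, 4.91 to 8.04 in fusion, 2.73 to 7.2 in slippage and 5.34 to 7.93 in cytokinesis failure. In bulk RNA, fewer cells of a kind and less RNA per cell cannot be told apart.

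The doubled populations differed from control in a moderate number of genes, and mostly by less than 2-fold. In the mean of the 3 populations 692 of 11424 genes (6.06%) were called, 350 higher (3.06%) and 342 lower (2.99%), and 28 of them (0.245%) changed at least 2-fold. On log2(TPM + 1) with limma-trend the count was 229, of which 81 were higher and 148 lower. Few of these genes were called in each population: 317 of the 692 were called the same way in 1 population (212 of them in fusion), 280 in 2 and 85 in all 3, and 10 in no single population. Taken alone, fusion differed from control in 1993 genes (17.4%), slippage in 706 (6.18%) and cytokinesis failure in 530 (4.64%). The 3 comparisons use the same 3 control libraries. Without control replicate 1, 2 or 3 the count in the mean was 283, 297 or 342, and without the cytokinesis failure population it was 1337.

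The 85 genes called the same way in all 3 populations, 0.744% of those tested, comprised 53 that rose (0.464%) and 32 that fell (0.28%). In each of the 85, all 9 doubled libraries lay on one side of all 3 controls, which was so for 221 genes above the controls (1.93%) and 202 below (1.77%) among all genes tested. Changes were modest: the median was 0.46 for those that rose and -0.48 for those that fell, 9 reached 2-fold, and the smallest mean change was 0.19. Of the 85, 84 had a RefSeq symbol and all 84 are protein-coding. The count was 45 without control replicate 1 and 51 without control replicate 2, 44 by DESeq2 and 29 by limma-trend on log2(TPM + 1). All 85 kept the call of the mean contrast when any whole doubled population was left out. This was close to fixed in advance, since each gene had been chosen as called the same way in every population.

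**Figure D1:**
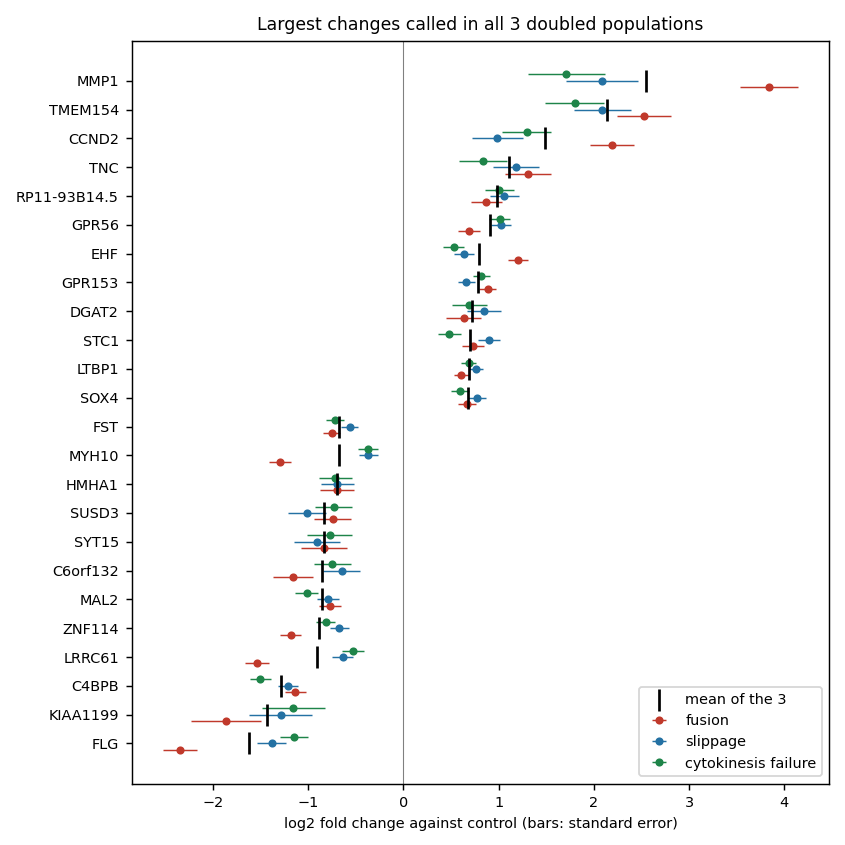
Log2 fold change against control (x axis) of the 12 rising and 12 falling genes with the largest mean change among those called in all 3 populations at a mean log2 CPM of at least 2, with points for fusion, slippage and cytokinesis failure, bars for the standard error and a black tick for the mean of the 3. MMP1 and TMEM154 lie farthest to the right and FLG farthest to the left, and for MMP1, FLG, LRRC61 and MYH10 the fusion point lies well beyond the other two.

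The largest rises among the shared genes were those of MMP1, TMEM154, ASB2 and CCND2. MMP1 encodes interstitial collagenase, which cuts fibrillar collagen (chr11:102789919-102798160 on GRCh38). It stood at 1.15, 1.56 and 1.35 CPM in the controls, 21.3, 19.8 and 18.3 in the fusion libraries, 8.2, 3.65 and 6.02 after slippage and 6.17, 3.59 and 4.3 after cytokinesis failure. Fusion was highest, slippage and cytokinesis failure overlapped each other, and every doubled library was above every control. MMP1 rose by 2.54 ± 0.32 in the mean (adjusted p = 1.88e-07), with 3.84 for fusion, 2.09 for slippage and 1.71 for cytokinesis failure, from a control level of a few counts per library.

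TMEM154, a single-pass membrane protein of little known function, showed the next largest rise, 2.14 ± 0.26 (adjusted p = 1.06e-07). Its level was 3.16, 1.88 and 1.63 CPM in the controls, 12.1, 13.4 and 13.3 in the fusion libraries, 8.51, 9.63 and 10.5 after slippage and 9.88, 8.21 and 5.91 after cytokinesis failure. The cyclin gene CCND2, whose product pairs with CDK4 and CDK6 in G1, was at 3.73, 5.01 and 3.52 CPM in the controls, 16.4, 21.6 and 17.7 in the fusion libraries, 8.51, 6.51 and 9.33 after slippage and 7.82, 11.8 and 9.67 after cytokinesis failure, and rose by 1.49 ± 0.22. ASB2, a ubiquitin ligase subunit that falls just under the level limit for the plot of named genes, went from 0.862, 0.939 and 1.08 CPM in control to 1.97 to 5.41 (median 4.03) in the doubled libraries, a rise of 1.98 ± 0.39. Fusion was the highest group for TMEM154 and CCND2, and none of their doubled libraries reached down to the controls. TNC, the matrix glycoprotein tenascin C, rose from 7.18, 5.63 and 4.06 CPM in control to 8.21 to 17.3 (median 12.2) in the doubled libraries, a change of 1.11 ± 0.21. The adhesion receptor gene GPR56, now named ADGRG1, was at 36.8, 35.4 and 39 CPM in control and 52.5 to 84.6 (median 69.3) in the doubled libraries, with a change of 0.91 ± 0.09. Here fusion had the lowest mean of the doubled populations, with log2 fold changes of 0.69 for fusion, 1.02 for slippage and 1.01 for cytokinesis failure. Of the remaining genes in this group, the orphan receptor gene GPR153 rose by 0.79 ± 0.07, the ETS-family epithelial transcription factor gene EHF by 0.79 ± 0.09, and the transcription factor gene SOX4 by 0.68 ± 0.08. LTBP1, which holds latent TGF-beta in the matrix, rose by 0.68 ± 0.07, STC1, the secreted glycoprotein stanniocalcin 1, by 0.70 ± 0.10, and DGAT2, which makes triglyceride, by 0.72 ± 0.15. The uncharacterised transcript RP11-93B14.5 rose by 0.98 ± 0.13. EHF differed among the doubled populations (adjusted p = 4.59e-07), with 1.2 for fusion, 0.64 for slippage and 0.53 for cytokinesis failure, and GPR153, SOX4, LTBP1 and DGAT2 were not called different among them (adjusted p = 0.0767, 0.267, 0.245 and 0.584).

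Among the shared genes that fell, FLG, KIAA1199, C4BPB and MATN2 had the largest changes. FLG encodes filaggrin, a protein of cornified epithelium, and was at 29.3, 30.7 and 34.4 CPM in the controls, 6.89, 6.39 and 5.27 in the fusion libraries, 11.9, 13 and 11.1 after slippage and 15.2, 14.9 and 12.6 after cytokinesis failure. The doubled libraries were all below the controls, fusion lowest, and FLG fell by 1.63 ± 0.12 (adjusted p = 1.09e-12). C4BPB, the beta chain of the complement regulator C4b-binding protein, was at 86.2, 74.5 and 74.2 CPM in the controls, 32.5, 38 and 36.3 in the fusion libraries, 30.1, 34.6 and 36.4 after slippage and 24.7, 32.1 and 25 after cytokinesis failure. Slippage overlapped both other doubled groups, all well below control, and C4BPB fell by 1.28 ± 0.08 (adjusted p = 1.3e-14). CD55, which also restrains complement at the cell surface, lies on the same chromosome arm and went from 237, 239 and 239 CPM in control to 150.2 to 209 (median 187) in the doubled libraries, a fall of 0.39. KIAA1199, now CEMIP, which takes part in hyaluronan breakdown, fell by 1.44 ± 0.27, and MATN2, a matrix protein of the matrilin family, by 1.24 ± 0.27, both at low levels (control means 7.33 and 5.54 CPM). MAL2, a membrane protein of apical transport, was at 46.8, 49.1 and 44.7 CPM in control and 21.8 to 30.8 (median 25.7) in the doubled libraries, and fell by 0.86 ± 0.09. ZNF114, a zinc-finger gene, fell by 0.89 ± 0.08, LRRC61, a leucine-rich repeat gene, by 0.90 ± 0.09, C6orf132 by 0.85 ± 0.16, the synaptotagmin gene SYT15 by 0.84 ± 0.19 and SUSD3 by 0.83 ± 0.16. HMHA1, now ARHGAP45, a GTPase-activating protein, fell by 0.70 ± 0.14, with nearly equal changes of -0.70 for fusion, -0.70 for slippage and -0.71 for cytokinesis failure.

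**Figure D2:**
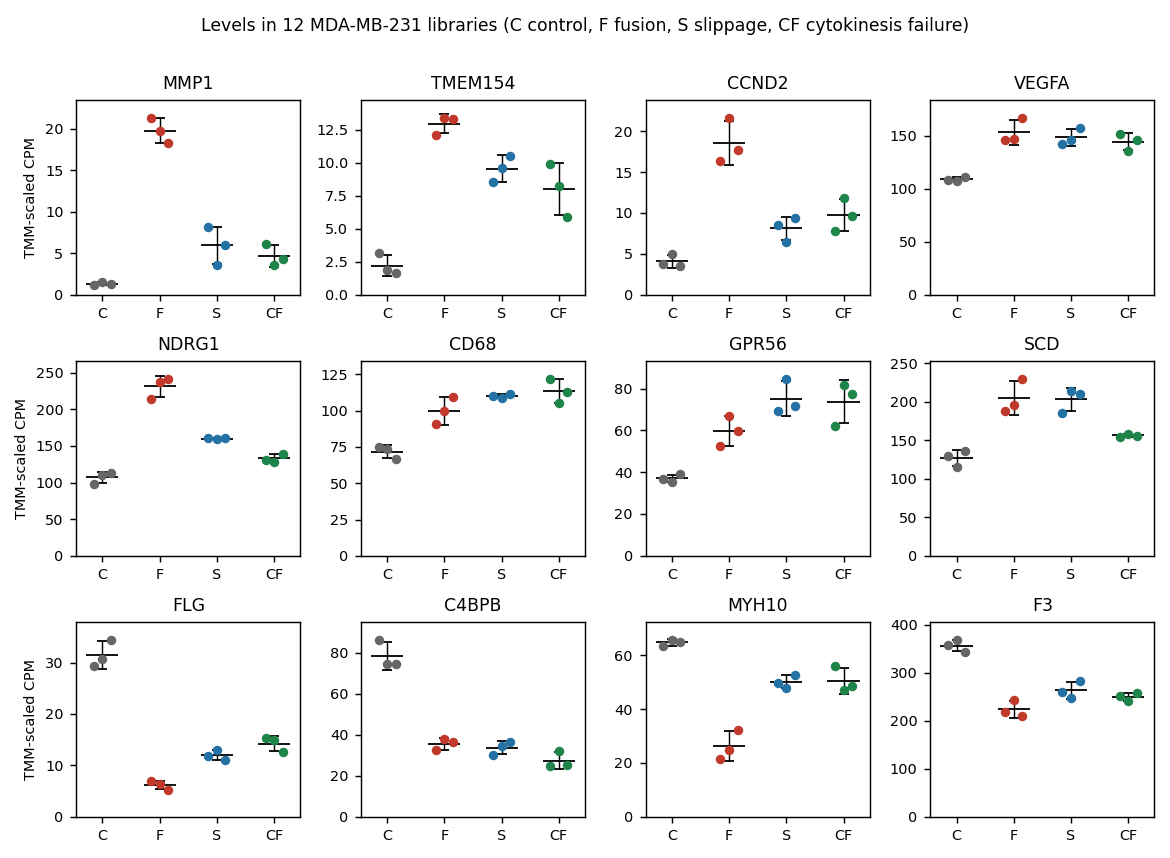
Level in TMM-scaled CPM (y axis, from 0) of 12 genes called in all 3 doubled populations, 1 panel per gene, in control (C), fusion (F), slippage (S) and cytokinesis failure (CF). Points are libraries, black lines are means and bars are SD of 3 libraries; in every panel the 9 doubled libraries lie on one side of the 3 controls.

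Targets of the hypoxia pathway rose together in a small set. In this pathway the factors HIF-1 and HIF-2 are stabilised at low oxygen and switch on genes for blood vessel growth, mitophagy and collagen modification. Of 24 list members tested, 6 rose and none fell by the mean contrast, against 3.06% and 2.99% of all genes, and 5 of the 6 (NDRG1, BNIP3L, BNIP3, VEGFA and P4HA1) were among the 85 shared genes. The median change of the list was 0.15, and that of all genes tested -0.0024. The shares of 3.06% and 2.99% are the background of every count of list members in the mean contrast. For every count in a single population, the shares of all genes that rose and fell were 9.34% and 8.11% in fusion. They were 3.27% and 2.91% in slippage and 2.29% and 2.35% in cytokinesis failure. The 6th, the mTOR inhibitor gene DDIT4, rose by 0.38 ± 0.07 and was not called in every population. The count of 6 was the same without both noisier libraries and by DESeq2, and 5 without control replicate 1, where P4HA1 was not called.

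VEGFA, the vascular growth factor, was at 108, 108 and 111 CPM in the controls, 146, 147 and 167 in the fusion libraries, 142, 146 and 157 after slippage and 151, 136 and 146 after cytokinesis failure. The 3 doubled populations overlapped and all exceeded control, and VEGFA rose by 0.45 ± 0.06 (adjusted p = 7.72e-07). NDRG1, a stress-responsive growth regulator, was at 98.5, 109.8 and 112 CPM in the controls, 214, 238 and 241 in the fusion libraries, 160.1, 159 and 160.3 after slippage and 131, 128 and 139 after cytokinesis failure. Its groups did not overlap and ran in the order control, cytokinesis failure, slippage and fusion, with changes of 1.11 for fusion, 0.58 for slippage and 0.32 for cytokinesis failure. The mitophagy receptor gene BNIP3 was at 186, 197 and 205 CPM in the controls, 324, 323 and 343 in the fusion libraries, 232, 255 and 255 after slippage and 258, 255 and 215 after cytokinesis failure, and rose by 0.46 ± 0.05. Its relative BNIP3L was at 66.3, 70.4 and 74.8 CPM in control and 87.5 to 122 (median 99.2) in the doubled libraries, and rose by 0.52 ± 0.07. For NDRG1, BNIP3 and BNIP3L the change differed among the doubled populations (adjusted p = 2.69e-12, 1.47e-07 and 0.000775) and was largest in fusion, and for VEGFA and P4HA1 it was not called different (adjusted p = 0.585 and 0.815). P4HA1, a subunit of collagen prolyl hydroxylase, went from 119, 134 and 119 CPM in control to 140.4 to 168 (median 149.5) in the doubled libraries, a rise of 0.27 ± 0.06.

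The promoters of BNIP3 and P4HA1 are shown because these are the shared hypoxia targets with an entry in the promoter table used here, which has none for VEGFA, NDRG1 and BNIP3L, and both hold ACGTG, the core to which hypoxia-inducible factors bind, on either strand; the motif was added after the data were seen. The sequences run from 250 bases before to 50 bases after the start of the gene, from RefSeq on GRCh38.p14, at chr10:131981874-131982173 and chr10:73096817-73097116, both on the minus strand and printed 5′ to 3′, with matches in capitals. In BNIP3 the 2 overlapping matches, 1 on each strand, form CACGTG.
BNIP3: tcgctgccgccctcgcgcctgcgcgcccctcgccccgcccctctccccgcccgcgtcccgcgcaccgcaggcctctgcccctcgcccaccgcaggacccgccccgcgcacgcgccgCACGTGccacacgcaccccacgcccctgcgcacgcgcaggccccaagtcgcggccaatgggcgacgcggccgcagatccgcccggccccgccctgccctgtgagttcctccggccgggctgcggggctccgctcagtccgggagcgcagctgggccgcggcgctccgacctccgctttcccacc
P4HA1: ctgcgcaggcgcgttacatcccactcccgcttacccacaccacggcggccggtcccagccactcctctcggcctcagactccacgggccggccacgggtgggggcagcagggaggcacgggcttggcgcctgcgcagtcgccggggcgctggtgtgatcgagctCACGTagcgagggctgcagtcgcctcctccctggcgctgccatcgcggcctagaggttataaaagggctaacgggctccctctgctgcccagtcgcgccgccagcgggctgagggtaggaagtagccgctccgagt
Among all tested genes with a promoter sequence, 9153 of 11424, ACGTG was present in 27.7%. It was present in 10 of 19 tested hypoxia list members with a sequence (52.6%), in 13 of 33 shared genes that rose (39.4%) and in 8 of 24 that fell (33.3%). In the larger sets called in the mean it was present in 27.3% of 282 genes that rose and 30.8% of 263 that fell. These shares describe letters in the sequence and not binding.

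Genes of the pericellular protease system and of cell-matrix adhesion were next. In the list of matrix metalloproteinases and the urokinase system 5 of 14 tested members rose and none fell, against 3.06% and 2.99% of all genes, with a median of 0.17, and 2 of them, MMP1 and PLAT, were shared. PLAT, tissue plasminogen activator, was at 89.3, 92 and 91.3 CPM in the controls, 139, 134 and 142 in the fusion libraries, 149.5, 156 and 150.1 after slippage and 99.2, 115 and 118 after cytokinesis failure. Slippage was highest and cytokinesis failure lowest of the doubled groups, and PLAT rose by 0.55 ± 0.06 (adjusted p = 1.21e-08). SERPINE2, an inhibitor of plasminogen activators and thrombin, rose by 0.56 ± 0.11, and PLAUR, the urokinase receptor, by 0.25 ± 0.05.

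Integrin and adhesion genes moved both ways, with 6 of 30 rising, 3 falling and a median of 0.05. Beside TNC, ITGA5, the fibronectin-binding integrin subunit, was shared, at 64, 51.6 and 59.1 CPM in control and 66 to 84.5 (median 76.3) in the doubled libraries, and rose by 0.36 ± 0.08 (adjusted p = 0.00175), a call not kept without control replicate 2. LAMA3 and LAMB3, chains of laminin-332, rose by 0.63 ± 0.15 and 0.34 ± 0.06, and ITGB1, the common beta integrin, by 0.15 ± 0.03. The members that fell were THBS1, at -0.27 ± 0.06, PTK2 (focal adhesion kinase), at -0.20 ± 0.05, and ITGA6, at -0.15 ± 0.04. Without 1 control library 4 members rose and 0 or 1 fell, and without fusion 10 rose and none fell. Of 19 tested mesenchymal genes 6 rose and 1 fell in the mean (median 0.11), 3 rising without any 1 control library. In fusion 5 rose and 5 fell (median -0.02), against 9.34% and 8.11% of all genes. In slippage 5 rose and none fell (median 0.05), against 3.27% and 2.91%. In cytokinesis failure 3 rose and none fell (median 0.13), against 2.29% and 2.35%. Those that rose in the mean included S100A4 (0.21 ± 0.04) and FN1, fibronectin (0.22 ± 0.06). The S100A4 call was lost without slippage. Its fusion mean lay below control, at 786.4 against 835.4 CPM when scaled over all 24 libraries. For FN1 the populations went opposite ways, at -0.74 for fusion, 0.59 for slippage and 0.80 for cytokinesis failure. The axon-guidance ligand SEMA3A and its receptor NRP1 were both shared and rose by 0.49 ± 0.08 and 0.32 ± 0.05. SEMA3A stood at 39.3, 41 and 37.9 CPM in control and 50.5 to 58 (median 56.3) in the doubled libraries, and NRP1, which also binds VEGFA, at 211, 211 and 223 and 237 to 310.3 (median 267).

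In the lysosomal list 7 of 43 tested members rose and none fell in the mean, against 3.06% and 2.99% of all genes, with a median of 0.05. The populations were less uniform. In fusion 9 rose and 3 fell, against 9.34% and 8.11% of all genes. In slippage 8 rose and 0 fell, against 3.27% and 2.91%. In cytokinesis failure 4 rose and 3 fell, against 2.29% and 2.35%. CD68, a heavily glycosylated lysosomal membrane protein, was at 74.7, 73.8 and 66.6 CPM in the controls, 90.5, 99.5 and 109.5 in the fusion libraries, 110.0, 109 and 111 after slippage and 122, 105 and 113 after cytokinesis failure. The doubled groups overlapped one another above the controls, and CD68 rose by 0.58 ± 0.07 (adjusted p = 3.28e-08). CTSB, the protease cathepsin B, went from 338, 365 and 339 CPM in control to 390.3 to 462 (median 419) in the doubled libraries, a rise of 0.26 ± 0.04. PSAP, the precursor of the saposins that help to break down sphingolipids, went from 519, 519.7 and 518 to 574 to 629 (median 608) CPM, a rise of 0.22 ± 0.04. These 3 were shared, and LAMP2 and LAMP1, the abundant lysosomal membrane proteins, rose in the mean by 0.37 ± 0.06 and 0.20 ± 0.05. CD68 is also a macrophage marker, and the summed level of 12 immune markers, of which CD68 alone passed the filter, was 72.7 to 81.6 CPM in control and 95.8 to 128.5 in the doubled libraries, while CD3E, MS4A1, ITGAM and NKG7 were at 0 in every library. The lysosomal count was 4 or 5 without 1 control library, 11 without both noisier libraries, and 1 by limma-trend on log2(TPM + 1).

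The fatty acid list held 1 shared member, SCD, and the lipase inhibitor gene G0S2 was shared outside it. SCD, which desaturates fatty acids, was at 129, 116 and 135 CPM in the controls, 188, 196 and 229.6 in the fusion libraries, 186, 213 and 209 after slippage and 154, 159 and 156 after cytokinesis failure. All doubled libraries were above control, cytokinesis failure least, and SCD rose by 0.55 ± 0.06 (adjusted p = 2.85e-08). In the fatty acid list 4 of 20 rose and none fell in the mean (median 0.02), and 1 or 2 rose without 1 control library. The phosphatidate phosphatase gene LPIN1 rose by 0.40 ± 0.10 and the acyl-CoA synthetase gene ACSL4 by 0.22 ± 0.06, calls both lost without fusion. In fusion 4 rose and 2 fell, against 9.34% and 8.11% of all genes. In slippage 2 rose and 1 fell, against 3.27% and 2.91%. In cytokinesis failure 1 rose and 1 fell, against 2.29% and 2.35%. In cholesterol synthesis 3 of 27 rose and 1 fell (median 0.07), led by INSIG1, a sterol-sensing regulator, at 0.65 ± 0.08. Its changes were 1.06 for fusion, 0.83 for slippage and 0.06 for cytokinesis failure, and 1 member rose without fusion or without any 1 control library. G0S2, an inhibitor of triglyceride lipase, was shared and rose by 0.62 ± 0.06, with 1.23 for fusion, 0.31 for slippage and 0.34 for cytokinesis failure. Its libraries stood at 111, 113 and 120.3 CPM in the controls, 277, 255 and 272 in the fusion libraries, 149.5, 130.4 and 147 after slippage and 137, 150.4 and 146 after cytokinesis failure, so that fusion was far above the other doubled populations, which overlapped.

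**Figure D3:**
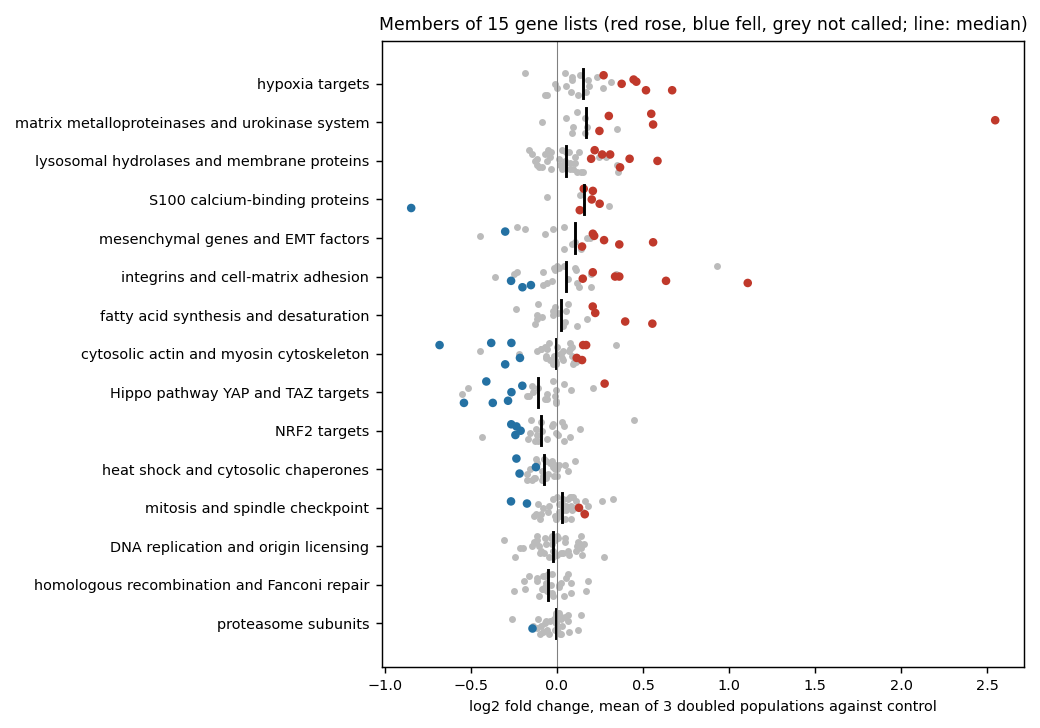
Log2 fold change of the mean of the 3 doubled populations against control (x axis) for the tested members of 15 gene lists (y axis), in red for members that rose, blue for members that fell and grey for members not called, with a black line at the list's median. Hypoxia targets (median 0.15) and matrix proteases (0.17) lie to the right, YAP and TAZ targets (-0.11) to the left, and the replication and recombination lists hold no called member.

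In the mean, targets of YAP and TAZ, the coactivators that the Hippo kinases restrain, fell more often than they rose. Of 25 tested members 6 fell and 1, NT5E, rose, against 2.99% and 3.06% of all genes. The median was -0.11, and 4 of 25 members lay above 0. In fusion, however, 4 rose and 3 fell (median -0.04), against 9.34% and 8.11% of all genes. In slippage 1 rose and 7 fell (median -0.16), against 3.27% and 2.91%. In cytokinesis failure 1 rose and 6 fell (median -0.16), against 2.29% and 2.35%. F3, tissue factor, which starts blood coagulation, was at 357, 369 and 345 CPM in the controls, 218, 244 and 211 in the fusion libraries, 259.8, 248 and 282 after slippage and 251, 241 and 258 after cytokinesis failure. The doubled groups lay well below control, and F3 fell by 0.54 ± 0.05 (adjusted p = 5.3e-11). F3 was the only shared member. ANKRD1, a widely used YAP target, fell by 0.41 ± 0.04 with -0.08 for fusion, -0.33 for slippage and -0.82 for cytokinesis failure, and TGFB2, the growth factor, by 0.37 ± 0.06 with -0.38 for fusion, -0.22 for slippage and -0.53 for cytokinesis failure. CTGF, CRIM1 and CYR61, named here after their values were seen, fell by 0.28, 0.26 and 0.20. The count that fell was 6 in each fit without 1 control library and by DESeq2, and 7 without both noisier libraries.

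Cytoskeletal genes moved in both directions. Of 40 actin and myosin genes 5 fell and 4 rose (median -0.0054), and all 3 shared members fell, MYH10 and FLNC among them. MYH10 encodes non-muscle myosin IIB, one of the motors of cortical tension and of the cleavage furrow, and was at 63.5, 65.7 and 65 CPM in the controls, 21.3, 24.9 and 32.3 in the fusion libraries, 49.8, 47.9 and 52.6 after slippage and 56, 47 and 48.6 after cytokinesis failure. Fusion was lowest by far, while slippage and cytokinesis failure overlapped below control, and MYH10 fell by 0.68 ± 0.08 (adjusted p = 1.74e-07). The actin cross-linker FLNC went from 157, 161 and 160.1 CPM in control to 111 to 142 (median 119.7) in the doubled libraries, a fall of 0.38 ± 0.05. CFL1 (cofilin), MSN (moesin), TMSB4X and TPM4 rose by 0.15, 0.15, 0.11 and 0.17, and 0 or 1 member rose, and 3 or 4 fell, without 1 control library. Of 24 epithelial genes 5 fell and 2 rose in the mean (median -0.05), with 3 falling and 1 rising without any 1 control library. In fusion 7 fell and 2 rose (median -0.11), against 8.11% and 9.34% of all genes. In slippage 3 fell and 4 rose (median 0.16), against 2.91% and 3.27%. In cytokinesis failure 3 fell and 1 rose (median 0.03), against 2.35% and 2.29%. Beside MAL2 the shared member was KRT7, a simple-epithelium keratin, at 568, 585 and 557 CPM in control and 366 to 483 (median 416) in the doubled libraries, and it fell by 0.46 ± 0.04. KRT18, the partner of KRT8, fell by 0.23 ± 0.04. The summed luminal markers, mostly these keratins, were at 980.5 to 985.9 CPM in control and 802.9 to 877.3 in the doubled libraries.

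FST, which encodes follistatin, a secreted inhibitor of activin, fell by 0.68 ± 0.07, from 83, 92.9 and 85.3 CPM in control to 48.2 to 62 (median 53.4) in the doubled libraries. It belongs to the TGF-beta and activin list, of which 4 of 26 members rose, LTBP1 most, and 2 fell (median -0.08). By population, 2 members rose and 12 fell in fusion (median -0.34), against 9.34% and 8.11% of all genes. In slippage 5 rose and 1 fell (median 0.06), against 3.27% and 2.91%. In cytokinesis failure 4 rose and 1 fell (median 0.20), against 2.29% and 2.35%. In the mean, without control replicate 3 the members that rose numbered 2. EMP1, an epithelial membrane protein, was one of the most abundant shared genes and rose by 0.24 ± 0.04, from 558, 544 and 548 to 625 to 690.3 (median 655) CPM. The other abundant shared genes were LGALS1 (galectin 1), which rose by 0.23 ± 0.04, APLP2, a relative of the amyloid precursor, by 0.19 ± 0.04, and MTDH, an endoplasmic reticulum protein, which fell by 0.20 ± 0.04. LGALS1 stood at 1236, 1272 and 1273 CPM in control and 1329 to 1678 (median 1459) in the doubled libraries.

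The promoters of F3, FST and EMP1 are shown because they hold TGANTCA, the site type of AP-1 factors, which reads alike on both strands, and because F3 and FST fell while EMP1 rose. They are RefSeq sequences on GRCh38.p14 of the same span as above, F3 at chr1:94541710-94542009 on the minus strand, FST at chr5:53480379-53480678 and EMP1 at chr12:13196476-13196775 on the plus strand, with matches in capitals.
F3: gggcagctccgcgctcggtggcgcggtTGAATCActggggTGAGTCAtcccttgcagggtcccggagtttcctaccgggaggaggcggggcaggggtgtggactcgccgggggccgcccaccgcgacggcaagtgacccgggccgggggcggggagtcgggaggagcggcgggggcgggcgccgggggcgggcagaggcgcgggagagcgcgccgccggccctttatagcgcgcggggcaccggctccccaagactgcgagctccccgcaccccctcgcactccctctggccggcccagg
FST: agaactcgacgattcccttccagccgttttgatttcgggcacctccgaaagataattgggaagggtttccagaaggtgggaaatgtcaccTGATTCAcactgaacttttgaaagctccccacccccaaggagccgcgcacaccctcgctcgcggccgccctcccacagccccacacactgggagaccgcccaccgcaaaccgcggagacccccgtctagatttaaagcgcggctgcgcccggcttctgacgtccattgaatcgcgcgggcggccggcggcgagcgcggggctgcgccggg
EMP1: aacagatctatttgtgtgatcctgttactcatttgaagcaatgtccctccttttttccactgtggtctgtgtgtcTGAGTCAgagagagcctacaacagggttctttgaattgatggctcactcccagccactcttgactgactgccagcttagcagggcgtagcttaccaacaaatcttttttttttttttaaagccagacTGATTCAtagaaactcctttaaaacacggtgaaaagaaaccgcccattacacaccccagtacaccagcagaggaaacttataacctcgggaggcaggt
The motif was present in 4.2% of all tested genes with a sequence, in 4 of 24 shared genes that fell (16.7%) and in 3 of 33 that rose (9.09%), so that it occurred in both directions. Other motifs were searched on both strands. The CCAAT box, read as ATTGG, was present in 36.4% of shared genes that rose, 45.8% of those that fell and 37.1% of all. GGAATG, the core that TEAD factors bind, was present in 18.2%, 20.8% and 10.6% in the same order, and TTTGAA, the core of the cell cycle homology region, in 21.2%, 12.5% and 9.37%. CACGTG, an E-box that also holds ACGTG, was present in 9.09%, 0% and 10.5%, and TATAAA, the TATA box, in 6.06%, 12.5% and 5.09%. The interferon response element was present in 9.09%, 0% and 2.81%, and TGATGNAA, the ATF4 type of site, in 3.03%, 0% and 1.56%. In the larger sets called in the mean, 282 genes that rose and 263 that fell, TGANTCA was present in 6.03% and 7.22%. In these sets GGAATG was present in 11.7% and 13.3%, and TTTGAA in 12.4% and 11.8%.

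In the mean, cell cycle lists were called at 0% to 12.5% of their tested members, against 6.06% of all genes. Of 40 replication genes and 29 genes of homologous recombination and Fanconi repair none was called by edgeR or DESeq2 (medians -0.02 and -0.05, with 10 and 2 genes at an unadjusted edgeR p below 0.05), of 46 mitotic genes 2 rose and 2 fell (8.7% called, median 0.03), of 16 mitotic kinesins 1 rose and 1 fell (12.5% called), and of 25 centrosome genes 1, TUBG1, fell (4% called). In fusion alone 10 replication genes rose and 4 fell, and 8 mitotic genes rose and 2 fell, against 9.34% and 8.11% of all genes. The change differed among the doubled populations for 15 of the 40 replication genes and 10 of the 46 mitotic genes, against 25.2% of all genes. Without any 1 control library none of these mitotic or centrosome genes was called. The 4 mitotic genes called were CENPE (0.13 ± 0.04), CDK1 (0.16 ± 0.05), CDC20 (-0.17 ± 0.05) and MYBL2 (-0.27 ± 0.08). KIF18A, the kinesin on which dividing aneuploid cells can depend, was at 48.9 ± 2.34 CPM in control, 60.5 ± 3.86 after fusion, 52.2 ± 7.54 after slippage and 52.9 ± 4.81 after cytokinesis failure (SD, n = 3), and was not called in the mean at 0.17 ± 0.09 (edgeR adjusted p = 0.279). The centrosome-clustering kinesin KIFC1 (0.19 ± 0.09, adjusted p = 0.221), the centriole kinase PLK4 (0.22 ± 0.12, adjusted p = 0.341) and cyclin E1 (CCNE1, -0.24 ± 0.12, adjusted p = 0.266) were not called in the mean either, nor were LATS2 (-0.06 ± 0.10, adjusted p = 0.811) and MYC (0.05 ± 0.07, adjusted p = 0.758). PLK4 and CCNE1 were called in fusion alone (adjusted p = 0.00694 and 0.00377), with 0.55 for fusion, -0.02 for slippage and 0.13 for cytokinesis failure for PLK4 and -0.65 for fusion, -0.07 for slippage and -0.02 for cytokinesis failure for CCNE1. CDKN2A had 0 counts in all 12 libraries.

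CDKN1A, which encodes the CDK inhibitor p21, rose in the mean by 0.50 ± 0.06 (adjusted p = 4.72e-08) but was not shared. It was at 93.6, 92.9 and 89.1 CPM in the controls, 101, 97 and 93.1 in the fusion libraries, 147, 141 and 139.6 after slippage and 151, 162 and 157 after cytokinesis failure. Fusion overlapped control, and slippage and cytokinesis failure lay above both, with changes of 0.08 for fusion, 0.63 for slippage and 0.78 for cytokinesis failure and an adjusted p among the doubled populations of 2.41e-10. PLK2, a kinase of centriole duplication, fell by 0.34 ± 0.05. PLK2 was shared, at 228, 227 and 236 CPM in control and 159.6 to 211 (median 179) in the doubled libraries.

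Of the 15 tested DNA-sensing genes 2 were shared and of 7 metallothioneins 1, against 0.744% of all genes. The lists used here for interferon-stimulated genes, NRF2 targets, chaperones, ribosomal proteins and S100 genes held no shared gene. The shared members of the DNA-sensing list were IFI16, a DNA sensor, which rose by 0.27 ± 0.06 and was not called without control replicate 1, and ENPP1, which degrades the messenger cGAMP, and which went from 142, 142 and 136 CPM in control to 164 to 223 (median 185) in the doubled libraries, a rise of 0.43 ± 0.05. Of 45 interferon-stimulated genes 5 fell and 1 rose in the mean and none was shared, while the single populations differed: 9 rose and 3 fell in fusion (9.34% and 8.11% of all genes tested), 9 rose and 1 fell in slippage (3.27% and 2.91%), and 13 fell and none rose in cytokinesis failure (2.35% and 2.29%). Without control replicate 2 or 3, 3 fell in the mean. BST2 (tetherin) fell by 0.48 ± 0.07 with -0.01 for fusion, -0.67 for slippage and -0.76 for cytokinesis failure. NRF2 targets held 4 of 25 that fell, among them TXNRD1 (-0.24 ± 0.04) and GCLM (-0.27 ± 0.05), with 2 or 3 falling without 1 control library, and chaperones held 3 of 31 that fell, among them HSPD1 (-0.22 ± 0.04), with 1 or 2 falling without 1 control library and 11 without both noisier libraries. Of 78 cytosolic ribosomal protein genes 8 rose and 2 fell, with 43 rising in fusion, 2 in slippage and none in cytokinesis failure, and in the mean 1 rose without fusion and 2, 3 or 5 rose, and at most 1 fell, without control replicate 1, 2 or 3. Ribosomal protein genes have near-identical pseudogene copies, and their counts are uncertain. MT1X, a metallothionein that binds zinc and copper, was shared and rose by 0.62 ± 0.06, with 0.93 for fusion, 0.46 for slippage and 0.48 for cytokinesis failure, and in its near-identical family it was the only 1 of 7 tested members that rose, while MT1M fell, a call lost without control replicate 1 or 3 and without fusion. S100 genes rose in 5 of 9 tested, S100A6 by 0.20 ± 0.03, and fell in 1, S100P, by 0.85 ± 0.20, a call lost without control replicate 1 or 2 and without fusion (-0.38). None of them was shared, 1 rose without slippage, and 2 rose without control replicate 1 or 2.

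The size of the change differed among the doubled populations for many of these genes. The test among the 3 populations called 2879 of 11424 genes (25.2%), 379 of the 692 genes of the mean contrast (54.8%) and 33 of the 85 shared genes, of which 24 had their largest change in fusion. The median size of the change over the 85 was 0.53 for fusion, 0.43 for slippage and 0.38 for cytokinesis failure. A gene could be called in the mean while the populations disagreed, and 117 genes of the whole table were called in opposite directions by different populations. SPANXB1, a cancer-testis gene of a near-identical X-linked family, is such a gene: it was at 75.5, 66 and 75.6 CPM in the controls, 273, 256 and 279.5 in the fusion libraries, 102, 102 and 91.2 after slippage and 32.1, 33.1 and 42.7 after cytokinesis failure. Fusion was far above control and cytokinesis failure below it, so that the mean change of 0.45 ± 0.07 was -0.28 without fusion. ENO1 (enolase), PFN2 (profilin 2) and MDK (midkine) had their largest change in fusion, with 0.55 for fusion, -0.03 for slippage and -0.16 for cytokinesis failure for ENO1, -1.18 for fusion, -0.07 for slippage and 0.22 for cytokinesis failure for PFN2 and -1.34 for fusion, -0.05 for slippage and -0.01 for cytokinesis failure for MDK.

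**Figure D4:**
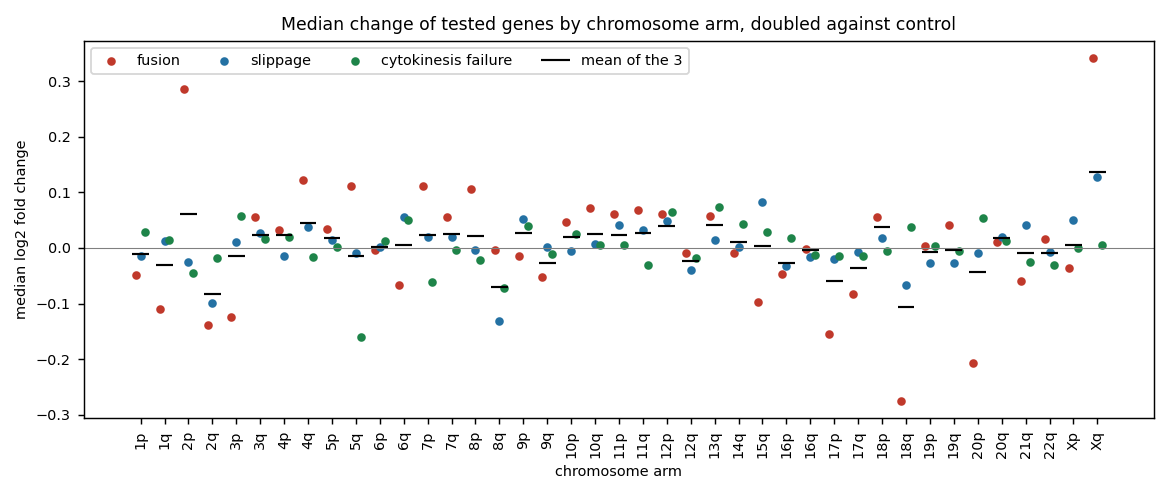
Median log2 fold change against control (y axis) of the tested genes on each of 41 chromosome arms (x axis), with points for fusion, slippage and cytokinesis failure and a black line for the median of the mean contrast. The fusion points spread most, from -0.27 on 18q to 0.34 on Xq, and on 2p the slippage and cytokinesis failure points lie below 0 while fusion is at 0.29.

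By chromosome arm, with 11162 tested genes (97.7%) placed on 41 arms, medians differed between the populations. Xq had the highest median in the mean contrast, 0.14, with 28 of 206 genes rising and 2 falling, and medians of 0.34 for fusion, 0.13 for slippage and 0.0050 for cytokinesis failure. Arm 18q had the lowest, -0.11, with -0.27, -0.07 and 0.04 in the same order. On 2p the median was 0.06 in the mean and 0.29 in fusion, and without fusion it was -0.04. On 2q, 38 of 443 genes fell and 2 rose, with a median of -0.08 and medians of -0.14, -0.10 and -0.02. Medians on 8q were -0.0043, -0.13 and -0.07. The 85 shared genes were spread over 32 arms, none of them on Xq. The arms with most were 1q (7 of 490 tested genes), 7q (7 of 369), 10q (7 of 334), 14q (6 of 367) and 8p (6 of 138), against 0.744% of all genes. DNA copy number was not analysed here, and its part in these medians was not tested.

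The shared changes of MDA-MB-231 were for the most part not those of HCC1806, whose 3 doubled populations and control were fitted in the same way and gave 1111 called genes of 11467 (9.69%; 4.46% higher and 5.22% lower) in their mean. Of the 85 shared genes 73 were tested in HCC1806, where 8 were called the same way and 17 the opposite way. The difference of the mean change between lines was tested in 1 fit of all 24 libraries. It was called for 673 of 12563 genes (5.36%), with 2.79% more positive and 2.56% more negative in MDA-MB-231. Among the 692 genes called in the mean of MDA-MB-231 it was called for 275, and among the 85 for 52. The difference contains the MDA-MB-231 change by which these genes were chosen, so a share above that of all genes is partly built in. The 8 called the same way in HCC1806 included SCD, at 0.49 ± 0.08 there, F3 at -0.38 ± 0.03, CD55 at -0.45 ± 0.05 and FST at -0.40 ± 0.07. Their differences between lines were not called (adjusted p = 0.857, 0.0596, 0.738 and 0.0709). F3 and CD55 had means below control in each HCC1806 population, but SCD and FST did not change alike in all. In the 24-library scaling SCD was there at 50.04 CPM in control, 101.3 after fusion, 43.16 after slippage and 79.25 after cytokinesis failure. FST was at 73.46, 80.96, 48.21 and 44.39 CPM in the same order.

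In the mean of the HCC1806 populations, opposite changes were found for MMP1, VEGFA, NDRG1, G0S2, GPR153, SOX9 and NRP1 among others. For MMP1 and VEGFA the fusion population of HCC1806 was not below its control. In the 24-library scaling MMP1 was there at 246.9 CPM in control, 284.7 after fusion, 124.3 after slippage and 51.52 after cytokinesis failure. VEGFA was at 18.72, 19.22, 14.48 and 9.24 CPM in the same order. MMP1 changed by -1.01 ± 0.06 in HCC1806, where its control level was far higher, 247 CPM in the 24-library scaling against 1.30 in MDA-MB-231, and the difference between lines was 3.55 ± 0.32 (adjusted p = 1.66e-11). G0S2 changed by -1.48 ± 0.14 in HCC1806, a difference of 2.10 ± 0.14 (adjusted p = 2.92e-21). GPR153 changed by -0.68 ± 0.09 there, VEGFA by -0.45 ± 0.14 and NDRG1 by -0.26 ± 0.09, with differences of 1.46 ± 0.12, 0.90 ± 0.14 and 0.93 ± 0.10 (adjusted p = 2.38e-17, 2.27e-06 and 7.03e-11). KRT7, which fell in MDA-MB-231, rose by 0.18 ± 0.03 in HCC1806 (difference -0.64 ± 0.05, adjusted p = 2.44e-16). Of the other hypoxia targets, BNIP3 was at -0.23 ± 0.10 in HCC1806 and not called there, and differed between lines (adjusted p = 1.69e-05), while BNIP3L did not reach the threshold (adjusted p = 0.224). The list medians in HCC1806 were -0.05 for hypoxia targets, -0.19 for matrix proteases and -0.02 for YAP and TAZ targets, beside 0.15, 0.17 and -0.11 in MDA-MB-231, and the number of members whose difference between lines was called was 5 of 24, 8 of 14 and 6 of 25, against 5.36% of all genes.

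**Figure D5:**
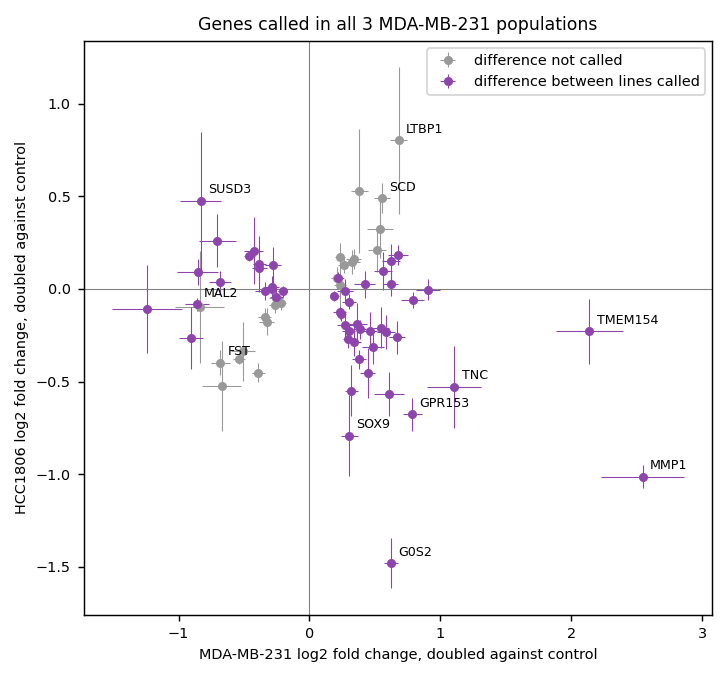
Log2 fold change of the mean of the doubled populations against control in MDA-MB-231 (x axis) and in HCC1806 (y axis), each from its own line's fit, for the 73 genes called in all 3 MDA-MB-231 populations that were tested in both lines, with standard errors as bars. Purple points are genes whose change differed between lines in the fit of all 24 libraries; MMP1 and G0S2 lie at the lower right and SCD among the genes above 0 in both.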

How the data were processed

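RNA of 12 MDA-MB-231 libraries, and of 12 HCC1806 libraries for the difference between lines, was read by 3′ tag sequencing. STAR and Salmon are named without versions, with GRCh38, per the submitters' processing notes. The annotation, strand setting and use of molecular identifiers are not given in the sources used here, so overlapping and antisense genes are uncertain. The authors deposited estimated counts per gene (29744 genes, 61 with a name held more than once, 4.41% of values not whole) and TPM. They were rounded, and edgeR 4.0.16 was run on them in R 4.3.3 (filterByExpr, TMM, robust quasi-likelihood F-tests, 4 groups, no block). The contrast was the mean of the 3 doubled groups against control, with Benjamini-Hochberg adjusted p below 0.05 as a call. Alternatives were DESeq2 1.42.0, RLE or no scaling factors, other filters, limma 3.58.1 trend on log2 of the deposited TPM with pseudocounts of 1 and 0.1, a replicate block, and leaving out libraries or populations.

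Replicates are labelled biological, and p-values measure the spread between libraries of 1 population. Named genes are the 12 rising and 12 falling genes with the largest mean change among those called alike in each population, with log2 CPM of at least 2 and separated libraries; up to 4 members per list (36 lists) of smallest adjusted p; 10 fixed genes; 5 per direction of line difference; 6 of smallest p among doubled populations; and the 4 of highest level. Other shared genes are named because all 85 form the group described. Members, lists and motifs were chosen with earlier results of these data known. Some genes that the rule names are not reported here. The low-pass genome sequencing was not analysed.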

Additional observations from a re-analysis of the deposited data

Results flagged for a closer look

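The difference of the mean change between MDA-MB-231 and HCC1806 (MDA-MB-231 minus HCC1806, log2) was called for 10 genes listed here by size, 5 in each direction, and each is given because the 2 lines differed by edgeR's quasi-likelihood test of that difference. CORO2B, a coronin, differed by 3.84 (adjusted p = 0.0287), MMP1 by 3.55, SPANXB1 by 3.28 (adjusted p = 0.0144), TMEM154 by 2.37 and G0S2 by 2.10. CORO2B and SPANXB1 had at most 2 and 4 counts in any HCC1806 library, so their differences rest on HCC1806 values near 0; neither was called without HCC1806 control replicate 1 (adjusted p = 0.156 and 0.188), nor CORO2B without control replicate 2 of that line (adjusted p = 0.171). SUSD3, a sushi-domain membrane protein, differed by -1.31, the uncharacterised LOC100996760 by -1.26, the junction protein PLEKHA7 by -1.10, ISYNA1, which makes inositol phosphate, by -1.08 and COCH, cochlin, by -1.04. PLEKHA7 fell by 0.75 in MDA-MB-231 and rose by 0.36 in HCC1806, and ISYNA1 fell by 0.71 and rose by 0.37. COCH stood at 0.601 CPM in fusion and 4.63 to 6.53 in the other MDA-MB-231 group means, and its call was lost without MDA-MB-231 control replicate 1 (adjusted p = 0.145), MDA-MB-231 control replicate 2 (0.0965) or HCC1806 control replicate 3 (0.057). SUSD3 was not called without HCC1806 control replicate 1 (0.0661), HCC1806 control replicate 2 (0.134), HCC1806 fusion replicate 2 (0.0831) or MDA-MB-231 control replicate 2 (0.0622).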

How the results depend on the processing

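The count of genes called in the mean was 336 by DESeq2 (196 higher, 140 lower), 229 by limma-trend on log2(TPM + 1) and 215 on log2(TPM + 0.1) (78 higher, 137 lower), 53 with the 9 doubled libraries as 1 group, 1337 without the cytokinesis failure population, and 283 to 792 leaving out 1 replicate. The count called in all 3 populations was 44 by DESeq2, 29 and 30 by limma-trend with pseudocounts of 1 and 0.1, and 45 to 90 leaving out 1 replicate. Genes differing among the doubled populations numbered 1797 by DESeq2 and 2185 to 2971 leaving out 1 replicate, and genes differing between lines 431 by DESeq2, 422 by limma-trend on log2(TPM + 0.1) and 479 to 719. Library totals without scaling, RLE factors, both filters and leaving out both noisier libraries moved none of these 4 counts by over 1.5 times. Of the 85 shared genes none changed direction under any of 25 alternatives, which their choice as called alike in each population made likely beforehand. Of them 49 kept the mean call under every alternative that gave them a value. The call was lost by 32 as 1 group of 9, by 18 under limma-trend and by 8 when a control replicate was left out (among them AIFM2, IFI16, ITGA5, LRP10, P4HA1, SLK and TIMM17A). DESeq2 gave 11 no adjusted p.

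Mean changes that turned sign without fusion were ENO1 (-0.0968), MYC (-0.0451), PFN2 (0.073), RPS4X (-0.0146) and SPANXB1 (-0.278, edgeR adjusted p = 0.0418), and without cytokinesis failure FN1 (-0.0764) and IFIT3 (0.0625). Leaving out 1 replicate, LATS2 ran from -0.114 to 0.0406 (without control replicate 3) and MYC from -0.00703 (without control replicate 1) to 0.125; these follow from which populations or libraries enter the mean, and LATS2 and MYC were not called in any case. Replicate numbers did not pair libraries: residuals of the 18 same-numbered pairs correlated at -0.191 to 0.0884, none over 0.1, and 3 of 12 libraries correlated best with their own number. With the replicate block the counts were 565, 73, 2654 and 624. With 3 replicates in a group, standard errors do not cover variation between independently doubled populations. With 2455707 to 3837957 counts per library, low genes such as MMP1 in control rest on a few counts.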

Other observations

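Growth-signalling genes that belong to none of the groups above also moved in the mean. In the list of immediate early and ERK feedback genes 4 of 27 rose and none fell, against 3.06% and 2.99% of all genes (median 0.11, with 24 of 27 above 0): the AP-1 subunit genes JUN (0.30 ± 0.06) and JUND (0.22 ± 0.05), and DUSP5 (0.35 ± 0.08) and DUSP6 (0.17 ± 0.04), phosphatases that switch ERK off. ERRFI1, a feedback inhibitor of EGFR, rose by 0.43 ± 0.06, a call lost without fusion. The EGFR-family ligands NRG1 and HBEGF fell by 0.26 and 0.20. Both of these calls were lost without any 1 control library, without fusion, with the replicate block and by DESeq2. None of these 7 was called in all 3 populations. The immediate early list had a median of -0.26 in HCC1806, and the difference between lines was called for 14 of its 27 members, against 5.36% of all genes; without fusion or without control replicate 1, 2 members rose, and by limma-trend on log2(TPM + 1) none. In glycolysis 4 of 22 rose and none fell (median 0.07), led by PGK1, phosphoglycerate kinase, at 0.38 ± 0.04, with log2 fold changes of 0.71 for fusion, 0.32 for slippage and 0.12 for cytokinesis failure; 1 or 2 rose without 1 control library. In the list of ATF4 and unfolded protein targets 5 of 35 fell in the mean, among them the amino acid transporter SLC7A5 (-0.30 ± 0.06), and 2 rose. Without 1 control library 1 or 2 fell. The populations went different ways. In fusion 16 rose and 2 fell (median 0.22), against 9.34% and 8.11% of all genes. In slippage 2 rose and 5 fell (median -0.01), and in cytokinesis failure none rose and 4 fell (median -0.05).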
